A study of Canis lupus familiaris with 12 samples.

Results

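The data described here are the RNA levels of 5 potassium channel genes in dog right atrium, KCNN1, KCNN2 and KCNN3 of the SK family and KCNK1 and KCNK3 of the two-pore family. They were taken by gene symbol from an mRNA table of 19856 genes, and all 5 were listed. The tissue came from mongrel dogs of either sex that carried a pacing lead in the right atrium. In the pacing group the atrium was stimulated continuously for 14 days at 500 beats per minute and 5 V, and in the control group the lead was placed without stimulation. Total RNA depleted of ribosomal RNA was sequenced from 3 dogs of each group, 1 library per dog, and small RNA was sequenced under the same design. The table names its libraries C1, C2 and C4 for control and P1, P2 and P3 for pacing. The sample titles number the libraries from C1 to C6 and place C4 among the paced dogs, so C4 was grouped by the letter of its column. Differences of the 5 genes and of the lists of their relatives are given with and without it, and those of other named genes are also given without it where that turned the direction or moved the value by over 1.5 times.

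SK channels are potassium channels opened by intracellular calcium, which they sense through calmodulin bound to the channel. In the atrium they carry a repolarizing current that follows the calcium transient. KCNN1, KCNN2 and KCNN3 encode SK1, SK2 and SK3, which differ in tissue distribution and can form mixed channels. Two-pore channels are dimers, each subunit with a pair of pore loops, and carry background potassium currents that set the resting potential. KCNK3 encodes TASK-1, an acid-sensitive channel prominent in human atrium, and KCNK1 encodes TWIK-1, a weakly conducting channel with changing ion selectivity.

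Values are FPKM as deposited, fragment numbers scaled by the length of the gene model and the size of the library. The totals of the libraries are not given by these values, but their steps at low levels are. Genes with few reads showed that 1 read was worth 1.88, 1.77 and 1.63 times as much FPKM in C1, C2 and C4 as in P2, 1.38 times as much in P1 and 0.995 times in P3, so the 3 pacing libraries were the deeper ones. From these steps the smallest whole read numbers behind KCNN1, KCNN2, KCNK1 and KCNK3 were recovered, within 0.05 reads plus 0.5% of the number, and those of KCNN3 were too large to resolve. A value of 0 is given as "listed at 0", because genes used by every cell were also listed at 0 in some libraries. COX3, ATP6 and MT-ATP8, subunits of the mitochondrial respiratory chain and ATP synthase, were listed at 0 in all 3 pacing libraries and at 7829 FPKM or more in every control library. No mean is given for KCNK1 and KCNN2, which have such values.

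A pair of control libraries stood apart. In C4 the 11 listed atrial markers summed to 172 FPKM, against 8704 and 4010 FPKM in C1 and C2. They summed to 10196, 9019 and 18275 FPKM in P1, P2 and P3, so the groups were apart. Pacing values lay fully above the controls for 4 of 10 atrial markers tested, against 11.0% of all genes apart. Without C4 it was also 4, against 34.5%. At an unadjusted p under 0.05, 1 was higher in pacing, against 5.54% of all genes, and 2 without C4, against 15.3%. The 8 listed ventricular markers summed to 6201 FPKM in C4, against 146 to 421 FPKM in the other 5 libraries. NPPA, the atrial natriuretic peptide, was at 7.78 FPKM in C4 and MYL2, the ventricular myosin light chain, at 2331 FPKM. In C2 the 13 neuronal markers summed to 308 FPKM, against 5.11 and 20.5 FPKM in the other controls and 2.53 to 10.6 FPKM in the pacing group. Markers of other cell types also varied. Macrophage markers summed to 26.0 FPKM in P3, 58.9 in C4 and 305 in P1. The fibroblast sum was lowest in C4, at 357 FPKM, then 712 in P3, and highest in P2, at 952. Smooth muscle sums ranged from 348 FPKM in C2 to 626 in C1, apart from 63.8 in C4. The 11 listed cardiomyocyte markers summed to 7385 FPKM in C2, the lowest, and to between 8904 FPKM in P1 and 13230 FPKM in C4 elsewhere. The groups overlapped in the macrophage, fibroblast, smooth muscle and cardiomyocyte sums. With 6 libraries 2 of 10 fibroblast markers were higher in pacing at an unadjusted p under 0.05, against 5.54% of all genes. Without C4 it was 1, against 15.3%. The 5 listed adipocyte markers, all above 0 in every library, summed to 829, 400.0 and 334.0 FPKM in C1, C2 and C4 and to 119.6, 124.2 and 170.5 FPKM in P1, P2 and P3, so the groups were apart. With 6 libraries 1 of these 5 genes was lower in pacing at an unadjusted p under 0.05, against 5.54% of all genes tested in either direction. Pacing values lay fully below the controls for 1 of them, against 11.0% of all genes apart. Without C4 all 5 were lower at that p, against 15.3%, and all 5 lay fully below, against 34.5%. Of these, 3 passed the adjusted threshold of limma, against 0.171% of all genes. The 6 pericyte markers summed to 156.8, 79.2 and 220.4 FPKM in the controls and to 214.7, 187.2 and 200.2 FPKM in pacing. At an unadjusted p under 0.05, 2 of the 6 were higher in pacing, against 5.54% of all genes, and also 2 without C4, against 15.3%. Pacing values lay fully above the controls for 3 of the 6, against 11.0% of all genes apart, and also for 3 without C4, against 34.5%. The part of these cell types in the differences given here was not tested. In tissue RNA, fewer cells of a type and less RNA per cell cannot be told apart.

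KCNN3 was the most abundant of the 5 genes. Its gene (ENSCAFG00000017167) lies on chromosome 7 at 42572866 to 42697820 of canFam3, on the plus strand. It was at 3.48 FPKM in C1, 1.35 in C2, 4.44 in C4, 4.31 in P1, 2.84 in P2 and 2.82 in P3. The groups overlapped, with the highest and the lowest of the 6 values both among the controls and the 3 pacing values between them. The level was 3.09 ± 1.58 FPKM in the control group and 3.33 ± 0.856 FPKM in the pacing group (SD, n = 3 each). On the log2(FPKM + 1) scale the difference, pacing minus control, was 0.15 with a standard error of 0.37 (limma adjusted p = 0.960, 95% interval -0.73 to 1.02), and the 2-sided exact permutation test gave p = 0.9. With 3 libraries against 3 that exact test cannot go below p = 0.1.

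C2 held the low end of KCNN3. The next lowest value, 2.82 FPKM in P3, was more than the 1.35 FPKM of C2 by a wider gap than any between neighbouring values of the other 5 libraries. Without C2 the difference on the log2(FPKM + 1) scale was -0.21, and without P1 it was -0.01. Without C4 the control level was 2.42 ± 1.51 FPKM (n = 2) and the difference was 0.40 with a standard error of 0.36 (limma adjusted p = 0.589, 95% interval -0.48 to 1.27), where the exact permutation test gave p = 0.6 and cannot go below p = 0.2. When C1 was left out as well, C2 was the only control and the difference was 0.86.

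**Figure D1:**
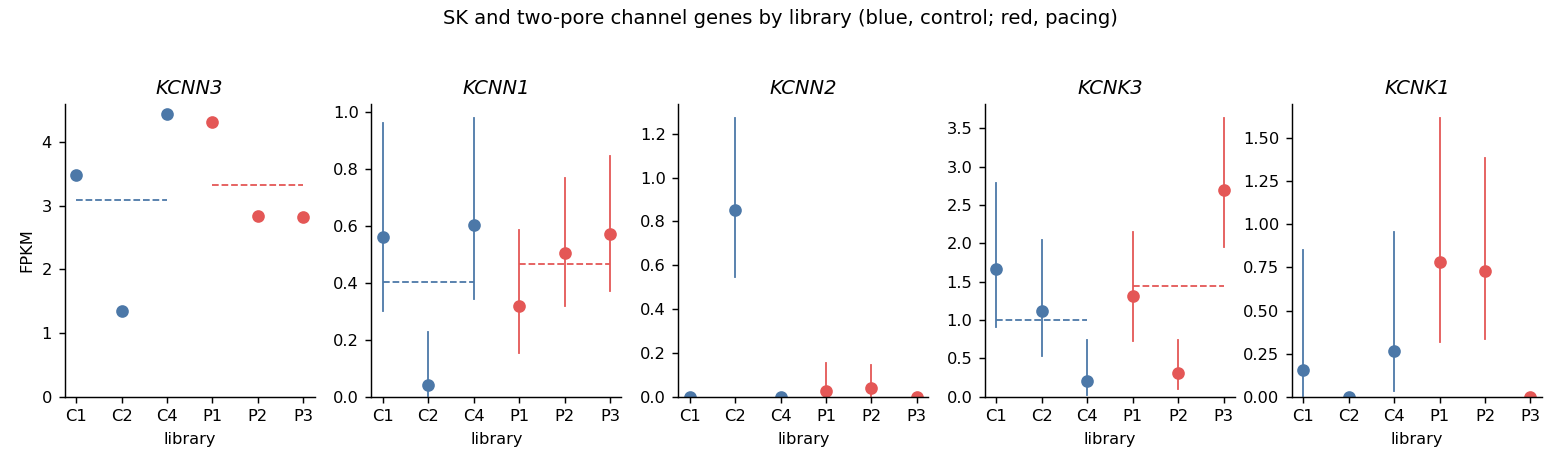
FPKM of the 5 channel genes in each library, 1 panel per gene with its own linear axis. Points are single libraries (blue control, red pacing), vertical lines are exact Poisson 95% intervals of the reads behind each point for the 4 genes with recovered reads, where there was at least 1, and dashed lines are group means, drawn for the 3 genes with no value of 0. KCNN3 and KCNN1 were lowest in C2, KCNN2 stood at 0.854 FPKM in C2 and at 0.0403 FPKM or less elsewhere, and KCNK3 ranged from 0.317 to 2.70 FPKM within the pacing group.

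KCNN1 was lower than KCNN3 in all 6 libraries. Its gene (ENSCAFG00000015092) lies on the minus strand of chromosome 20 at 44938896 to 44969020. The level was 0.563 FPKM in C1, 0.0406 in C2, 0.604 in C4, 0.318 in P1, 0.507 in P2 and 0.573 in P3. As with KCNN3, C2 was lowest, with a single read against 10 to 25 in the other 5 libraries. The group levels were 0.402 ± 0.314 FPKM in control and 0.466 ± 0.133 FPKM in pacing (SD, n = 3 each), and the exact permutation test of the log2(FPKM + 1) values, which differed by 0.09, gave p = 0.9 (2-sided). Without C4 the difference was 0.20 (exact permutation p = 0.6). Without C2 it was -0.12, so its sign rested on that library.

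KCNN2 was found almost entirely in C2. Its gene (ENSCAFG00000000220) lies on the plus strand of chromosome 11 at 4279399 to 4423474. It was listed at 0 in C1, C4 and P3, at 0.854 FPKM in C2, at 0.0278 FPKM in P1 and at 0.0403 FPKM in P2. C2 contributed 24 of the 27 reads recovered for the gene, or 88.9%, P1 1 read and P2 2 reads. By exact Poisson 95% intervals, which cover counting error only, the 24 reads place C2 between 0.547 and 1.27 FPKM, and the upper ends in P1 and P2 were 0.155 and 0.146 FPKM. The log2(FPKM + 1) difference was -0.26 with 6 libraries (exact permutation p = 1) and -0.41 without C4 (p = 0.8). Without C2 it was 0.03, so the lower value in pacing was that of 1 control library.

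The library with most KCNN2 reads also had the highest sum of neuronal markers. Of the 13 neuronal markers 12 were above 0 in C2, against 4 to 7 in each of the other libraries. CHAT and SLC18A3, which make and load acetylcholine, were at 2.23 and 3.20 FPKM in C2. Both were listed at 0 in the other 5 libraries. SNAP25, of the synaptic vesicle fusion machinery, was at 66.4 FPKM in C2 and at 1.29 FPKM or less elsewhere, and STMN2, a protein of growing axons, was at 126 FPKM against 2.08 or less. NEFL, a neurofilament gene, was high in both C2 and C4, at 22.5 and 18.4 FPKM, while KCNN2 was listed at 0 in C4. CHAT, SLC18A3 and SNAP25 were chosen after their values were seen. The part of neuronal RNA in the KCNN2 signal was not tested.

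Within each library the SK genes were also set against each other. KCNN3 made up 86.1% of the summed FPKM of the 3 genes in C1, 60.2% in C2, 88.0% in C4, 92.6% in P1, 83.9% in P2 and 83.1% in P3. It was the first gene of the family in every library. KCNN1 came second everywhere except in C2, where KCNN2 made up 38.0% and KCNN1 1.81%. The KCNN3 share was 78.1 ± 15.5% in control and 86.5 ± 5.26% in pacing (SD, n = 3 each, 2-sided exact permutation p = 0.6). The summed level of the 3 genes was 3.78 ± 1.42 FPKM in control and 3.81 ± 0.732 FPKM in pacing (exact permutation p = 1). Without C4 the control values were 73.1 ± 18.3% and 3.15 ± 1.27 FPKM (n = 2, exact permutation p = 0.6 each).

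**Figure D2:**
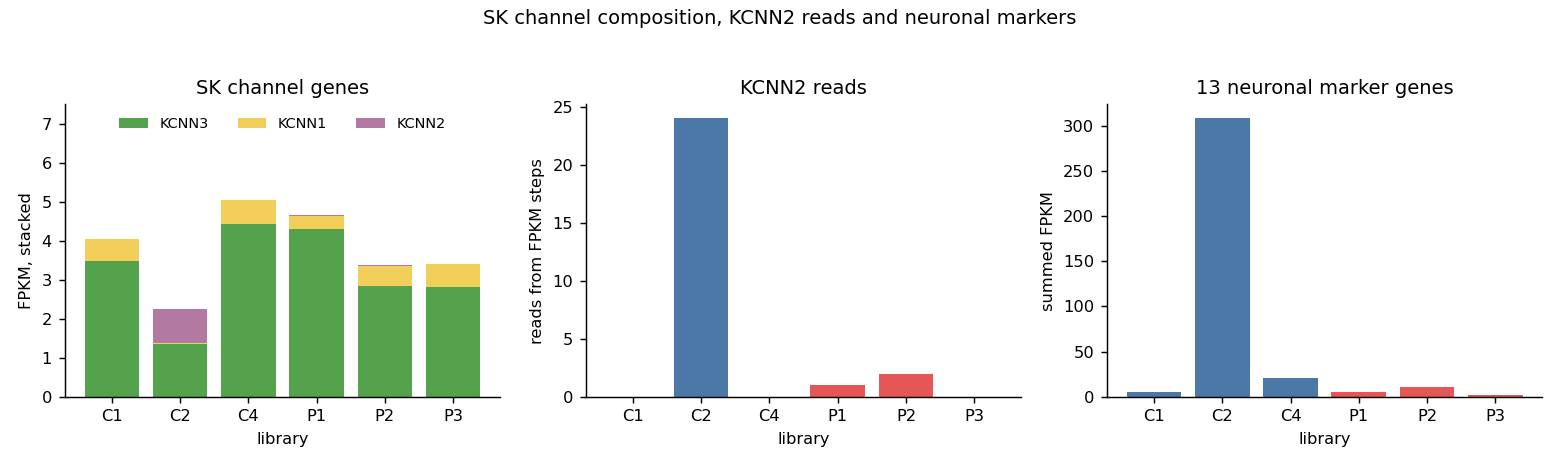
SK channel genes by library. Left, FPKM of KCNN3, KCNN1 and KCNN2 stacked; middle, KCNN2 reads from the FPKM steps; right, summed FPKM of 13 neuronal marker genes (blue control, red pacing). KCNN3 was the largest part of every stack, and C2 held both the 24 KCNN2 reads and the 308 FPKM of neuronal markers.

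Ratios between SK genes were taken with 1 FPKM added to each gene, and showed no difference beyond the spread between libraries. The added 1 FPKM was more than every value of KCNN1 and KCNN2, so these ratios still depended on how a library is scaled. In C1, C4 and P3, where KCNN2 was listed at 0, its ratio was set by KCNN3 alone. The log2 ratio of KCNN1 to KCNN3, each with 1 FPKM added, was -1.49 ± 0.29 in control and -1.55 ± 0.40 in pacing (SD, n = 3 each, exact permutation p = 0.8). That of KCNN2 to KCNN3 was -0.34 in C2 and between -2.44 and -1.88 in the other 5 libraries (exact permutation p = 0.9 between the groups). Without C4 the differences, pacing minus control, were -0.20 for KCNN1 to KCNN3 and -0.81 for KCNN2 to KCNN3 (exact permutation p = 0.8 and 0.6). These 2 ratios and that of KCNK3 to KCNK1 gave Benjamini-Hochberg adjusted p = 0.9 with 6 libraries and 0.8 without C4.

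KCNK3 ranged widely within both groups. Its gene (ENSCAFG00000023367) lies on the plus strand of chromosome 17 at 20732818 to 20768730. It was at 1.67 FPKM in C1, 1.12 in C2, 0.206 in C4, 1.31 in P1, 0.317 in P2 and 2.70 in P3. The groups overlapped, and the highest of all values and the second lowest were both in the pacing group. P3 had 43 reads (exact Poisson 95% interval 1.95 to 3.63 FPKM), and P2 had 5 reads (0.102 to 0.736 FPKM), so these libraries of 1 group differed by more than counting error.

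The KCNK3 level was 0.999 ± 0.741 FPKM in control and 1.44 ± 1.20 FPKM in pacing (SD, n = 3 each). The log2(FPKM + 1) difference was 0.24 with a standard error of 0.49 (limma adjusted p = 0.946, 95% interval -0.90 to 1.38, exact permutation p = 0.7). C4, the library with low atrial markers, had 2 KCNK3 reads and the lowest level. Without it the control level was 1.40 ± 0.392 FPKM (n = 2) and the difference was -0.09 (limma adjusted p = 0.938, 95% interval -1.26 to 1.09, exact permutation p = 1). Without P3 the difference was -0.12. The part of chamber composition in these values was not tested.

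KCNK1 was near the limit of detection. Its gene (ENSCAFG00000011564) lies on the minus strand of chromosome 4 at 6118404 to 6122260, and the listed span of 3.86 kb is the shortest of the 5. It was at 0.153 FPKM in C1, 0.263 in C4, 0.782 in P1 and 0.730 in P2, and listed at 0 in C2 and P3. The reads behind these values were 1, 2, 7 and 9. P1 and P2 were above every control, but P3 was not, and the groups overlapped. The log2(FPKM + 1) difference was 0.36 with 6 libraries (exact permutation p = 0.4) and 0.44 without C4 (p = 0.6). Of the 19 reads in all, 16 came from the pacing group, which was also sequenced more deeply.

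The ratio of KCNK3 to KCNK1 changed sign between libraries of both groups. On the log2 scale with 1 FPKM added it was 1.21 in C1, 1.08 in C2, -0.07 in C4, 0.37 in P1, -0.39 in P2 and 1.89 in P3. KCNK3 was therefore the higher of the pair in 4 of 6 libraries, with C4 and P2 the exceptions. The added 1 FPKM was more than every KCNK1 value. In C2 and P3, where KCNK1 was listed at 0, the ratio was set by KCNK3 alone. The mean ratio was 0.74 ± 0.70 in control and 0.62 ± 1.16 in pacing (SD, n = 3 each, exact permutation p = 0.9). Without C4 the control ratio was 1.15 ± 0.09 (n = 2) and the difference -0.53 (exact permutation p = 0.6).

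The order of the 5 genes was compared within libraries. KCNN3 was above KCNK3 in all 6, by 0.98 ± 0.82 on the log2(FPKM + 1) scale (SD, n = 6). KCNK3 was above KCNN1, KCNN1 above KCNK1 and KCNK1 above KCNN2 in 4 of 6 libraries each. In P3 KCNK1 and KCNN2 were both listed at 0. The SD of each of these 3 steps over the 6 libraries was larger than the step, so the order of these neighbours varied between libraries. The mean steps were not tested. FPKM is a level per length, and 1 read in P2 was worth 0.0811 FPKM for KCNK1, 0.0630 for KCNK3, 0.0231 for KCNN1 and 0.0202 for KCNN2, so a single read moved KCNK1 most.

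Across all genes, a mean of at least 1 FPKM over the libraries was asked for before testing, and 11583 genes met it. KCNN3 and KCNK3 were the members among them. At an adjusted p under 0.05 limma called 0.0259% of the genes tested, all 3 of them the mitochondrial genes listed at 0 in pacing, and none of the members. At an unadjusted p under 0.05 the share was 5.54%, and neither member reached it. Pacing and control values were fully apart for 11.0% of those genes, and for neither member. Without C4 the adjusted share was 0.171% of 11699 genes, the unadjusted share 15.3% and the share without overlap 34.5%, again with neither member among them. When all genes above 0 were tested, KCNK1 (adjusted p = 0.878), KCNN1 (0.934) and KCNN2 (0.878) were not called by limma.

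**Figure D3:**
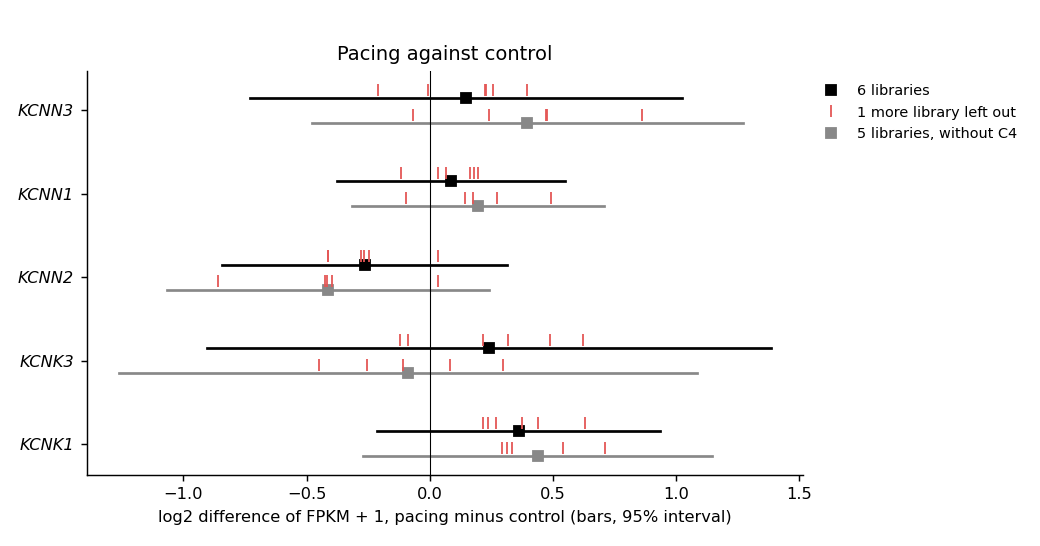
Difference of log2(FPKM + 1), pacing minus control, for the 5 genes. Squares are estimates with 6 libraries (black) and without C4 (grey), bars are limma 95% intervals, taken from the test of all genes above 0 for KCNN1, KCNN2 and KCNK1, and red ticks are estimates with 1 library left out. All 10 intervals cross 0, and the ticks fall on both sides of 0 for every gene except KCNK1.

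KCNN3 and KCNK3 were also fitted under other pseudocounts, filters and scalings and with libraries left out, and KCNK1, KCNN1 and KCNN2 only with lower or no filters. In none of these 69 limma fits did a member pass the adjusted threshold. The smallest adjusted p was 0.210, for KCNN3 without C4 and C1, the fit in which C2 was the only control.

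Relatives of the 5 genes were described from lists. Of 13 other two-pore channel genes 12 were listed, of which 5 were listed at 0 in all 6 libraries, and KCNK13 and KCNK6 passed the expression filter. Neither passed the adjusted threshold. The median of their differences was 0.70, and 0.77 without C4, against -0.03 and -0.16 over all genes tested. KCNK13 encodes THIK-1, a halothane-inhibited channel, and was at 0.305, 0.115 and 1.41 FPKM in C1, C2 and C4 and at 1.79, 2.08 and 3.33 FPKM in P1, P2 and P3. All pacing values lay above all control values, one of the 11.0% of genes whose groups were apart. The log2(FPKM + 1) difference was 1.14 (limma unadjusted p = 0.0214, adjusted p = 0.879) and 1.47 without C4 (adjusted p = 0.188). KCNK6, which encodes TWIK-2, differed by 0.27 (limma adjusted p = 0.913), and by 0.08 without C4 (adjusted p = 0.923).

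The two-pore genes together came to 4.84 ± 1.48 FPKM in control and 6.94 ± 0.647 FPKM in pacing (SD, n = 3 each, 2-sided exact permutation p = 0.2). Without C4 the control sum was 5.61 ± 0.899 FPKM (n = 2, exact permutation p = 0.4). Among them KCNK3 made up 26.8% in C1, 22.5% in C2, 6.26% in C4, 18.2% in P1, 5.10% in P2 and 36.4% in P3. KCNK1 made up at most 11.8%, in P2. KCNK3 was thus in no library the first gene of the family.

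**Figure D4:**
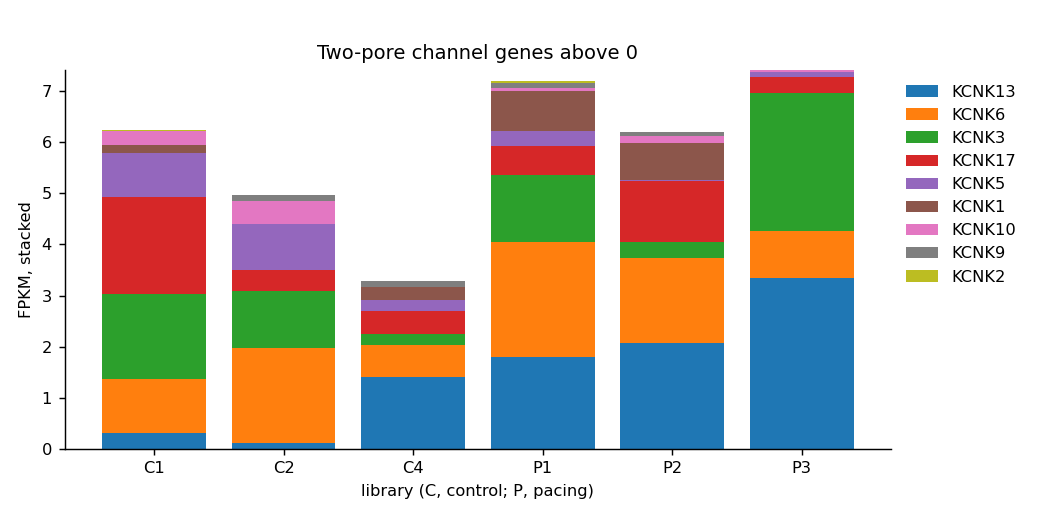
FPKM of the 9 two-pore channel genes above 0 in any library, stacked by library on a linear axis (C control, P pacing). KCNK13 was at 1.79 to 3.33 FPKM in the pacing libraries and at 0.115 to 1.41 FPKM in the controls, and KCNK3 reached 2.70 FPKM in P3 and stood at 0.206 FPKM in C4.

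Of 9 other genes for calcium-activated potassium channels 6 were listed and 3 were tested, and none passed the threshold. Their median difference was -0.57, and -0.95 without C4, against -0.03 and -0.16 over all genes tested. KCNN4, the intermediate-conductance relative of the SK genes, was at 7.35 FPKM in C2 and between 0.788 and 1.77 FPKM in the other 5 libraries. KCNMA1, the pore of the large-conductance channel, was at 5.47 FPKM in C2 and between 0.699 and 1.48 FPKM elsewhere. Both were thus highest in the library that held most KCNN2 reads. KCNMB1, a smooth muscle subunit of the large-conductance channel, differed by 0.14 (limma adjusted p = 0.975). Without C4, where KCNMB1 was at 0.365 FPKM, the difference turned to -0.44 (adjusted p = 0.561). KCNN4 differed by -0.57 with 6 libraries and by -0.98 without C4 (limma adjusted p = 0.904 and 0.458).

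For SK channel partners, 10 of 14 listed genes were found and 9 tested, with a median difference of -0.15 against -0.03 over all genes tested, and none passed the adjusted threshold. At an unadjusted p under 0.05, 1 was lower and 0 were higher, against 5.54% of all genes tested in either direction. Pacing values lay fully below the controls for 2 of the 9 and fully above for 0, against 11.0% of all genes apart. Without C4 the median was -0.19 against -0.16 over all genes tested. There 1 gene, the kinase subunit CSNK2A2, was lower and 0 were higher, against 15.3% of all genes tested in either direction. Its difference without C4 was -0.51 (limma unadjusted p = 0.0460, adjusted p = 0.319). All pacing values lay below all control values for 4 of the 9 genes, against 3122 of all 11699 genes tested. In either direction 34.5% of all genes were apart. With 6 libraries the smallest unadjusted p belonged to PPP2CA, a catalytic subunit of the phosphatase bound to SK channels. It was at 104, 133 and 124 FPKM in C1, C2 and C4 and 86.9, 87.8 and 89.6 FPKM in P1, P2 and P3 (difference -0.44, limma adjusted p = 0.879). Without C4 PPP2CA differed by -0.42 (limma unadjusted p = 0.0621, adjusted p = 0.344). CACNA1C, the L-type calcium channel pore, differed by 0.57 (limma adjusted p = 0.892) and by 0.36 without C4 (adjusted p = 0.559). CSNK2A2 and PPP2CB, kinase and phosphatase subunits, differed by -0.36 and -0.26 with 6 libraries (limma adjusted p = 0.892 each).

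For genes that traffic or regulate two-pore channels, 13 of 17 were listed and 12 tested, and none passed the adjusted threshold. Their median difference was -0.24, against -0.03 over all genes tested. At an unadjusted p under 0.05, 1 was higher and 1 lower, against 5.54% of all genes tested. Pacing values lay fully above the controls for 1 of the 12 and fully below for 2, against 11.0% apart over all genes. Without C4 the median was -0.40, against -0.16 over all genes tested. There 1 gene was higher and 4 were lower at that threshold, against 15.3% of all genes, and pacing values lay fully below the controls for 6 of the 12 genes and fully above for 1, against 34.5% apart over all genes. YWHAG, a 14-3-3 protein, was at 138, 155 and 125 FPKM in C1, C2 and C4 and at 94.6, 88.3 and 83.4 FPKM in P1, P2 and P3 (difference -0.64, limma adjusted p = 0.879). EDNRA, the endothelin A receptor, which inhibits TASK-1 in expression systems, was at 19.8, 13.6 and 9.76 FPKM in the controls and at 23.1, 29.9 and 36.6 FPKM in pacing (difference 1.03, adjusted p = 0.879). COPB1 and YWHAB differed by -0.39 and -0.59 (limma adjusted p = 0.892 each). YWHAB, another 14-3-3 protein, was at 104 and 118 FPKM in C1 and C2 but at 46.8 FPKM in C4, below the 49.9 to 59.8 FPKM of the pacing libraries. Without C4 it differed by -1.002 (limma unadjusted p = 0.00134, adjusted p = 0.147).

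The genes most like KCNN3 in their pattern over the 6 libraries, among 6934 genes with a mean of at least 5 FPKM, were LMOD2, ARHGAP18 and HBP1. Their root mean square differences from its centred log2(FPKM + 1) profile were 0.11, 0.12 and 0.14, against 0.40 for the spread of KCNN3 itself. LMOD2, which elongates sarcomeric thin filaments, was at 218, 139, 297, 312, 230 and 196 FPKM in C1, C2, C4, P1, P2 and P3. For KCNK3 they were PLD5, DNMBP and UBALD1, at 0.16, 0.17 and 0.18 against 0.56. With 6 libraries this is a description of shared high and low libraries.

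Small RNA and non-coding RNA at these genes were also examined. miR-499, a heart muscle miRNA hosted by a myosin gene and reported in human atrial fibrillation to repress KCNN3, is shown because of that target. Its mature sequence as deposited is given with the seed, bases 2 to 8, in capitals.
cfa-miR-499: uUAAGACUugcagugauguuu
It was counted at 21675 tags in C1, 15367 in C2, 81180 in C4, 59639 in P1, 11004 in P2 and 23997 in P3. As a share of all miRNA tags this was 3.24 ± 3.15% in control and 2.34 ± 1.08% in pacing (SD, n = 3 each), with the highest value in C4 and the lowest in C2. The edgeR log2 fold change was -0.74 with a standard error of 0.63 (adjusted p = 0.711), and 0% of 251 miRNAs were called, with 28 at an unadjusted p under 0.05, while DESeq2 called 4 and not miR-499. Without C4 the fold change was 0.48, so its sign rested on that library. Among libraries of the same names, C4 was highest and C2 lowest for both miR-499 and KCNN3, though the tables do not state that both libraries of a name came from 1 dog.

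None of the 15990 listed circRNAs was named to one of the 5 genes or lay within 20000 bases of them. Among 10310 lncRNA rows 1 transcript lay within that window, an intergenic one 12478 bases from KCNN1.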

How the data were processed

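Total RNA and small RNA from 3 control and 3 pacing dogs were sequenced by the authors, who trimmed with Cutadapt 1.9.3 and used the dog genome canFam3. HISAT2, Cufflinks and Cuffdiff appear in the submitters' processing notes. The deposited FPKM values and the deposited miRNA and circRNA counts were used as given, and 24 other per-sample columns were not used. Repeated miRNA rows with the same values were dropped first, from 381 rows to 350. Columns were grouped by their letter. The value of 1 read in each library was the commonest FPKM ratio to P2 among genes under 0.1 FPKM in both, and read numbers up to 60 were searched. Intervals cover counting error only. miRNA tags totalled 829553 to 1815172 per library. FPKM was tested with limma 3.58.1 (trend, 2-sided) on log2(FPKM + 1) over genes with a mean of at least 1 FPKM, Benjamini-Hochberg adjusted, so low genes' changes are understated. Tags were tested with edgeR 4.0.16 (quasi-likelihood, at least 10 tags summed) and DESeq2 1.42.0, and single genes with exact permutation tests in scipy 1.17.1. The limma and edgeR fits were also run on simulated data. For limma, large changes were placed only in abundant genes of low spread, so this does not bear on genes as low as the members. Members, gene lists and tests were chosen with earlier results of these data known. Named relatives are up to 4 tested genes per channel list with the smallest p; marker lists are given as sums. All 5 members matched RefSeq by gene ID. Protein and promoter sequences were not used here.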

Additional observations from a re-analysis of the deposited data

Results flagged for a closer look

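The intergenic lncRNA ENSCAFT00000055575, 12478 bases from KCNN1 on chromosome 20, was at 0.243 FPKM in P1 and listed at 0 in the other 5 libraries, including all 3 controls. It was singled out because a value above the control level appeared in data that no comparison used. KCNN1 itself was lowest among the pacing libraries in P1, at 0.318 FPKM.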

How the results depend on the processing

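No member passed the adjusted threshold in any of 69 limma fits, most of them of KCNN3 and KCNK3, but signs were not stable. As log2 differences, KCNN3 ranged from -0.21 to 0.40 with 1 library left out, and from -0.069 to 0.86 when C4 was absent as well. KCNK3 ranged from -0.12 to 0.62, and without C4 from -0.45 to 0.30; it was -0.19 with array weights and -0.31 with C4 counted as pacing, and without C4 it was 0.019 under quantile normalization and 0.0084 under median of ratios scaling. KCNK1 ranged from 0.21 to 0.63, and without C4 from 0.29 to 0.71; a pseudocount of 0.1 gave 0.998 and 1.39. KCNN1 ranged from -0.12 to 0.20, and without C4 from -0.097 to 0.49; a pseudocount of 0.1 gave 0.46 and 0.86. KCNN2 ranged from -0.41 to 0.032, and without C4 from -0.86 to 0.032; a pseudocount of 0.1 gave -0.80 and -1.35. With 1 library left out, the log2 ratio difference ranged from -0.81 to 0.24 for KCNN2 to KCNN3, from -0.20 to 0.17 for KCNN1 to KCNN3 (0.23 with a pseudocount of 0.1) and from -0.75 to 0.39 for KCNK3 to KCNK1. miR-499 ranged from -1.02 to 0.48 and was 1.20 with C4 counted as pacing. The count of genes called was 3 to 20 with 1 library left out, 20 of them without C4 and 5 without C1, and 26 with C4 counted as pacing. Without C4 it was 6 to 29 (10 without C2, 6 without P2 or P3), 10 with a pseudocount of 0.1 and 13 with no filter. Scaling to cardiomyocyte genes moved the median of all genes from -0.03 to -0.20, and without C4 from -0.16 to -0.50. Under that scaling the difference was 0.043 for KCNN3 and 0.088 for KCNK3, and without C4 it was 0.14 and -0.31. Relative to the moved median KCNN3 was at 0.24, and 0.63 without C4, and KCNK3 at 0.29 and 0.19. Where only 1 control remained, limma assumed that it varied like the pacing libraries. No paired analysis was possible because column numbers match only for 1 and 2 and nothing ties them. The circRNA and lncRNA alternatives were not run, since no member had such an RNA assigned. The cause of these changes was not tested.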
